A study of Mus musculus with 22 samples.

Results

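A set of 10 genes of the core cell cycle engine was followed through 20 libraries of the experiment: the cyclins Ccnd1, Ccnd2, Ccnd3, Ccne1, Ccne2, Ccna2 and Ccnb1, the kinases Cdk1 and Cdk2, and the kinase inhibitor Cdkn1b. They were chosen by name, by a rule that uses no measured value, although earlier results of these data were known, and are 10 of the 55487 genes listed. The cells were mouse embryonic stem cells that lack endogenous Dux (Dux-/-) and were kept in 2iLIF. After plating and 24 h of recovery, all groups received doxycycline at 0.25 ug/mL over 12 h, which induced mCherry, a red fluorescent protein, alone or joined to a form of the transcription factor DUX. Poly(A) RNA of 10 groups with 2 replicate libraries each is described here, and the group C3delt14 was not analysed here.

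Full-length DUX is called FL and the tag without DUX is called mCherry. From what is known of the study, C1 to C5 are repeats in the C-terminal part of DUX and 14 is the tail of 14 residues behind them. C1+14 and C3+14 then keep a single repeat with the tail, while C1C3a, C1C3b and C1C3c are chimeras of C1 and C3 whose design is not given in the sources used here. C12345delt14 lacks the tail, deltC12345+14 lacks the repeats, and deltC12345delt14 lacks both. Every group is an overexpression in 1 knockout cell line, and nothing in the labels says that replicates came from separate cultures, so p-values measure only the spread between these libraries. The levels are whole cell populations, in which fewer cells of a type and less RNA per cell cannot be told apart.

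Cyclins are the regulatory subunits that switch on cyclin-dependent kinases. D-type cyclins pair with CDK4 and CDK6 and link growth signals to phosphorylation of the retinoblastoma protein, which releases E2F factors. E-type cyclins with CDK2 then drive entry into S phase, cyclin A acts with CDK2 and CDK1 through S and G2, and cyclin B with CDK1 drives mitosis. Cdkn1b encodes p27, which binds and inhibits cyclin E-CDK2. DUX switches on genes of the 2-cell embryo, whose cells are known for a long cycle.

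Promoter sequence was at hand in the RefSeq table (GRCm38.p6) for 6 of the 10 genes: Cdk1, Ccnb1, Cdk2, Ccne1, Cdkn1b and Ccnd3. The 250 bases upstream of the start of 4 of them are printed 5′ to 3′ on the gene's own strand. Cdk1 and Ccnb1 are shown because their RNA moved alike, Cdk2 because it moved apart from them, and Ccne1 because its RNA fell under every construct set against mCherry. Capitals mark letters that match CHR (TTTGAA), the CCAAT box (CCAAT) or an E2F site (TTTNNCGC), searched on both strands together with the palindromic DUX site. No 2 matches overlapped in the windows printed. Cdk1 is at chr10:69352913-69353162, Ccnb1 at chr13:100786487-100786736, Cdk2 at chr10:128705052-128705301 and Ccne1 at chr7:38107491-38107740, all on the minus strand.
Cdk1: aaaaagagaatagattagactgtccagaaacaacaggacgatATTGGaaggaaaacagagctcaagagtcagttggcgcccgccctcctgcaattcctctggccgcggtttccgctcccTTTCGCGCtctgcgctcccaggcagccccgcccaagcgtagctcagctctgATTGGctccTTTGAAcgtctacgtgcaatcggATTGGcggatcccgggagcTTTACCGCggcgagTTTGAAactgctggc
Ccnb1: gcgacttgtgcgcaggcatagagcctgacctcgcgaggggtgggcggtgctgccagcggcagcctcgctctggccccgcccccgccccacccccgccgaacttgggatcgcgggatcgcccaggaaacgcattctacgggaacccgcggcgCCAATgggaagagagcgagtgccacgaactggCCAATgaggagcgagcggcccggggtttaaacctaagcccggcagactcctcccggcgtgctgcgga
Cdk2: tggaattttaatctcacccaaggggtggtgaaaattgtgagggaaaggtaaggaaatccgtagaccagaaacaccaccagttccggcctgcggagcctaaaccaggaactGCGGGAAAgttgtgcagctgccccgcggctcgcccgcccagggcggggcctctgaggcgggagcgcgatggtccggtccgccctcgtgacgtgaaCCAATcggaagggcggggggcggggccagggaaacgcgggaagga
Ccne1: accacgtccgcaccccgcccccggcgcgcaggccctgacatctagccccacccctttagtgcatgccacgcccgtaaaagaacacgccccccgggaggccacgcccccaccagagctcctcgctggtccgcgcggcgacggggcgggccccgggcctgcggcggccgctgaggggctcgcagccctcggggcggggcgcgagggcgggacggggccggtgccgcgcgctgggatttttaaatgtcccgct

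Positions are counted from the RefSeq start. The Cdk1 window held 2 CHR matches, at positions -71 and -15, 3 CCAAT boxes and 2 E2F matches. Ccnb1 held 2 CCAAT boxes, at -99 and -67, and Cdk2 held 1 CCAAT box at -45 and 1 E2F match at -140. Ccne1 held none of the 4 motifs in these letters. Of the genes whose windows are not printed, Cdkn1b held CCAAT boxes at -161 and -35, and Ccnd3 held 1 at -108. Over all 32851 promoters of the table, cut to the same length, 16.0% held CHR, 33.8% a CCAAT box, 4.28% the E2F letters and 0.0304% the DUX site, and no window of the 6 genes held that site. The CHR is known as the binding element of the MuvB complexes that regulate late cell cycle genes, and the CCAAT box as that of NF-Y. These matches describe the letters only.

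The values are read counts divided by 1 size factor per library, called normalised reads here. FL and 6 other groups (C3+14, C1C3a, C1C3b, C1C3c, C1+14 and mCherry) share a table of 14 libraries, the chimera table, and FL shares a second table of 8 libraries, the deletion table, with the other 3 groups. Library totals were 21059953 to 40448890 reads. A difference was called where limma gave a Benjamini-Hochberg adjusted p under 0.05 over all genes tested and the log2 fold change, on the log2(value + 1) scale, was at least 1 in size. All 10 genes and all 65 genes of the wider lists below passed the filter on low values in both tables.

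The libraries were of 2 kinds that the labels do not explain. Reads of 1623 genes present in many near-identical copies made up 1.66% to 2.57% of a library in 14 libraries and 0.295% to 0.421% in the other 6. The low kind holds both mCherry and both C3+14 libraries, replicate 2 of deltC12345+14 and replicate 1 of deltC12345delt14. Between mCherry and all constructs of its table other than C3+14, this kind and the construct cannot be told apart. The 8 embryonic stem cell markers were detected in every group, with a summed level of 29445 to 88944 normalised reads in the chimera table, highest in mCherry and lowest in C1C3b. Markers of feeder fibroblasts summed to 35.4 to 183 there, lowest in C1C3c, trophectoderm markers to 605 to 2206 and primitive endoderm markers to 68.6 to 648. Fibroblast markers at 0 in both libraries of a group were Postn, Dcn and Lum in mCherry, Dcn and Lum in FL, Postn and Dcn in C1C3a, and Dcn in C1C3c. Trophectoderm markers were highest in mCherry and primitive endoderm markers lowest there, and the part of any of these in the results was not tested. The 7 genes found of the 2-cell list summed to 0.660 and 0.858 in mCherry, to 6.20 and 11.7 in C1+14, to 839 and 910 in C1C3c, to 14713 and 20413 in C1C3b and to 725187 or more in C3+14, C1C3a and FL.

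In the mCherry libraries, the level per kilobase of exon was highest for Ccnb1, at 2165 normalised reads per kb, followed by Ccne1 at 1357, Ccna2 at 1157 and Cdk1 at 1148. Ccnd3 was the D-type cyclin with the highest level at 954 per kb, against 531 for Ccnd1 and 6.28 for Ccnd2. Cdk2 stood at 311, Cdkn1b at 134 and Ccne2 at 118 per kb. The value for Ccnb1 is uncertain, since 39.3% of its sampled 50-base windows also occur in other genes, chiefly the copies Ccnb1-ps, Gm12856, Gm8416 and Gm4870. Ccna2, Ccnd1, Ccnd2, Ccnd3, Ccne2 and Cdk2 overlap exons of a gene on the opposite strand by 34 to 1100 bases. The kit marks strand, but whether the counting used it is not given in the sources used here.

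**Figure D1:**
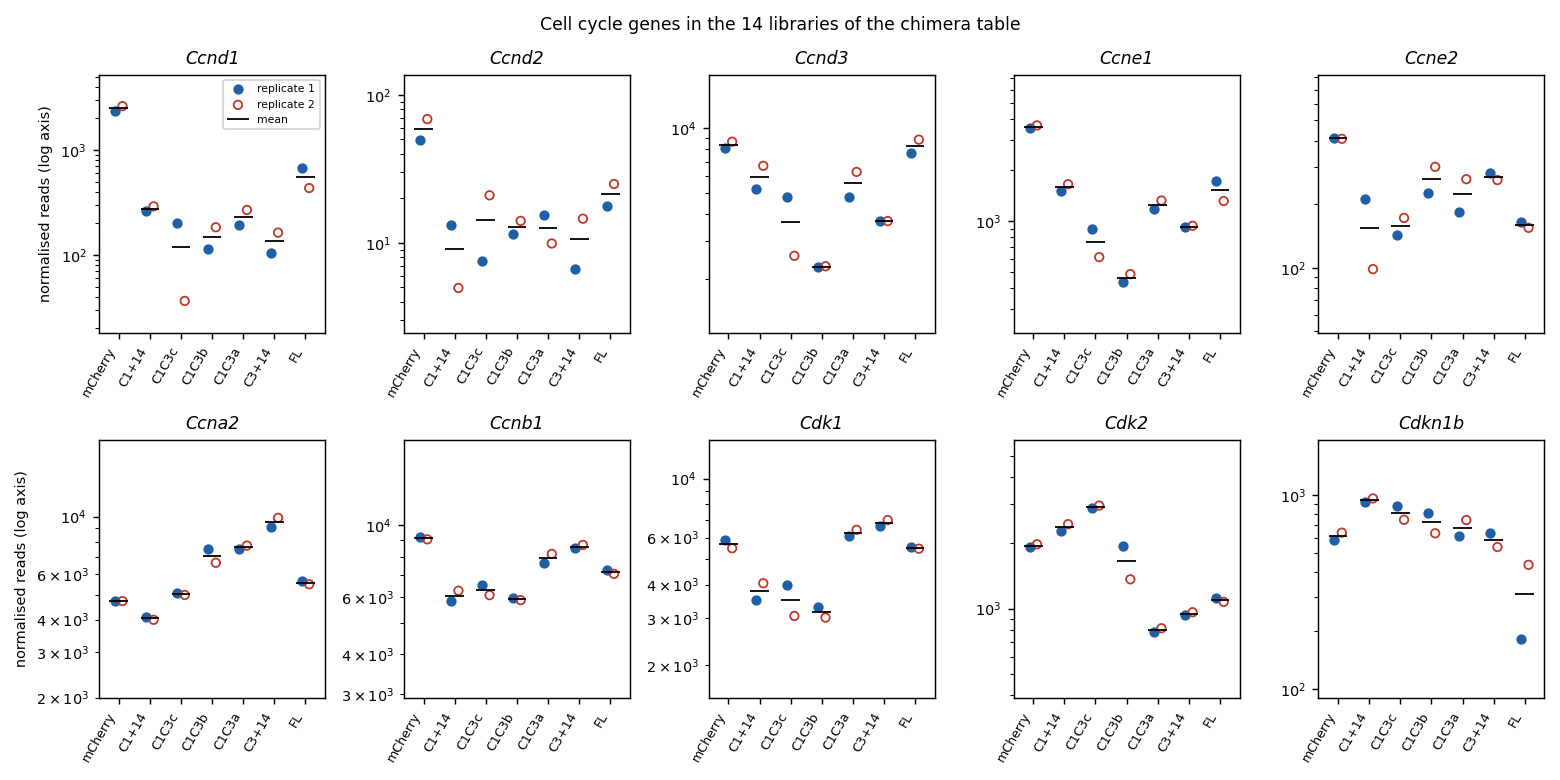
Normalised reads (log axis) of the 10 genes in each library of the chimera table, by group on the x axis. Filled and open circles are replicates 1 and 2 and the bar is their mean. Ccnd1 and Ccne1 are highest in both mCherry libraries, and Cdk2 is lowest in C1C3a, C3+14 and FL.

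Against mCherry, the genes called lower were mostly cyclins of G1 and the G1 to S transition. With FL, 4 of the 10 genes were called, all lower (Ccnd1, Ccne1, Ccne2 and Cdkn1b), where 44.2% of the 21584 genes tested were called and 19.6% were called lower. With C3+14, 6 were called, 5 of them lower (Ccnd1, Ccnd2, Ccnd3, Ccne1 and Cdk2) and Ccna2 higher, against a background of 47.3% called, 17.7% lower and 29.6% higher. With C1C3a, 4 were called lower (Ccnd1, Ccnd2, Ccne1 and Cdk2), against 46.4% called and 19.0% called lower. With C1C3b, 4 were called lower (Ccnd1, Ccnd2, Ccnd3 and Ccne1), against 44.7% and 17.1%. With C1C3c, 5 were called lower (Ccnd1, Ccnd2, Ccnd3, Ccne1 and Ccne2), against 28.8% and 10.5%. With C1+14, 4 were called lower (Ccnd1, Ccnd2, Ccne1 and Ccne2), against 18.3% and 5.95%.

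In each of the 6 comparisons, the 4 to 6 genes called of 10 lay near or above the share of all genes called. With the deposited scaling, the 4 or 5 called lower stood beside a background of 5.95% to 19.6% called lower. That background ran from 6.36% with C1+14 to 28.0% with C1C3a under quantile normalization. Under median centring it ran from 9.03% to 28.7% with the same constructs. The median log2 fold change of the 10 genes was -0.97 with FL, -0.81 with C3+14, -0.75 with C1C3a and C1C3b, -0.98 with C1C3c and -0.59 with C1+14, beside 0 to 0.23 for all genes tested. These 6 comparisons share the same 2 mCherry libraries, so they are not independent of each other. Quantile normalization moved the median of all genes by -0.48 with C3+14, -0.44 with C1C3a and -0.36 with FL, and median centring by -0.37, -0.45 and -0.27. Under quantile normalization the genes called higher made up 42.4% of calls with C3+14 in place of 62.6%, 41.0% in place of 59.0% with C1C3a and 41.2% in place of 55.5% with FL. The same shift of the split held for C1C3b, with 47.8% in place of 61.7%, and C1C3c, with 53.6% in place of 63.6%.

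**Figure D2:**
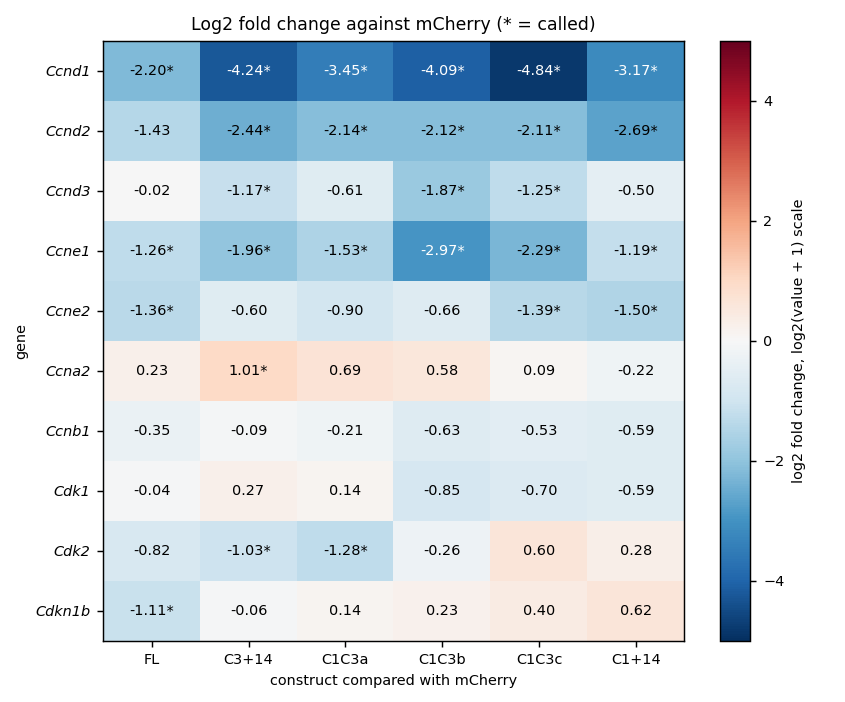
Log2 fold change of each gene (rows) for each construct against mCherry (columns), on the log2(value + 1) scale, with colour giving sign and size and an asterisk marking a called difference. Ccnd1 and Ccne1 carry the asterisk in all 6 columns, and Ccnb1 and Cdk1 in none.

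Ccnd1, which encodes cyclin D1 (ENSMUSG00000070348, GRCm38 chromosome 7, 144929931 to 144939925, minus strand), had the largest change of the 10 genes. The mCherry libraries held 2377 and 2623 normalised reads (2500 ± 174, SD, n = 2). In FL there were 682 and 434, with 263 and 291 for C1+14, C1C3a 191 and 269, C1C3b 115 and 184, C3+14 106 and 164, and C1C3c 203 and 36.5. Every construct library lay below both mCherry libraries, and both FL libraries lay above all the other constructs. Ccnd1 fell by 2.20 ± 0.56 (SE) on the log2 scale with FL (adjusted p = 0.00397), and its log2 fold change was -3.17 with C1+14 (adjusted p = 0.00103), -3.45 with C1C3a, -4.09 with C1C3b, -4.24 with C3+14 and -4.84 with C1C3c (adjusted p = 2.09e-05). All 6 calls held in each of the 17 other settings tried per comparison. Here and below, these include the main fit without the minimum fold, which cannot lose a call. The C1C3c fold rested in size on replicate 2: without it the value was -3.62, and without replicate 1 it was -6.06. Below FL, no neighbours in the order of means differed beyond their spread.

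Ccnd2, cyclin D2 (ENSMUSG00000000184, chromosome 6, 127125162 to 127152193, minus strand), had the lowest level of the D-type cyclins. It held 49.5 and 68.6 normalised reads in mCherry, 17.7 and 25.0 in FL, 7.54 and 21.0 in C1C3c, 11.4 and 14.1 in C1C3b, 15.5 and 9.91 in C1C3a, 6.70 and 14.6 in C3+14, and 13.2 and 4.96 in C1+14. No construct library reached the mCherry libraries. Ccnd2 fell with C1C3c (-2.11), C1C3b (-2.12), C1C3a (-2.14), C3+14 (-2.44) and C1+14 (-2.69), at adjusted p of 0.00301 to 0.0113, and the difference with FL was -1.43 ± 0.60 (SE, adjusted p = 0.0534), which 6 other settings called, quantile normalization (-1.97) and edgeR (-1.61) among them. These low levels gave calls that hung on single libraries. Without mCherry replicate 2 the values were -1.91 with C1C3a, -1.88 with C1C3b and -1.88 with C1C3c, and none was called (adjusted p = 0.0557, 0.0614 and 0.0852). The C1C3a call was also lost without C1C3a replicate 2 (-1.85), and the C1C3c call without C1C3c replicate 1 (-1.43). The fit of the 2 groups alone did not call C1C3c or C1+14 (adjusted p = 0.0782 and 0.0658).

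Ccnd3, cyclin D3 (ENSMUSG00000034165, chromosome 17, 47505051 to 47599691, plus strand), was ordered differently. The libraries held 8087 and 8655 normalised reads in mCherry and 7648 and 8848 in FL, which overlap, and the difference was -0.02 ± 0.23 (SE, adjusted p = 0.941). There were 5238 and 6694 with C1+14, 4816 and 6276 with C1C3a, 3721 and 3717 with C3+14, 4809 and 2569 with C1C3c, and 2269 and 2298 with C1C3b. Ccnd3 fell with C3+14 (-1.17 ± 0.23, adjusted p = 5.71e-04), C1C3c (-1.25 ± 0.23, adjusted p = 6.76e-04) and C1C3b (-1.87 ± 0.23, adjusted p = 1.32e-05). The values with C1C3a and C1+14 were -0.61 and -0.50 and were not called, but with C1C3a Ccnd3 was called under quantile normalization (-1.18) and median centring (-1.05). With FL the quantile value was -0.72. The C1C3c call was lost without C1C3c replicate 2, at -0.80, and when only the 2 groups were fitted (adjusted p = 0.0784). In both constructs that hold 1 library of each kind, deltC12345+14 and deltC12345delt14, the Ccnd3 level of the high kind less that of the low kind was 0.47 and 0.52 on the log2 scale, and the part of the library kind in the differences from mCherry was not tested.

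Ccne1, cyclin E1 (ENSMUSG00000002068, chromosome 7, 38097984 to 38107534, minus strand), fell under all 6 constructs, by the most under C1C3b. The mCherry libraries held 3541 and 3682 normalised reads (3611 ± 99.9, SD, n = 2). There were 1512 and 1651 with C1+14, 1722 and 1313 with FL, 1179 and 1322 with C1C3a, 918 and 938 with C3+14, 895 and 611 with C1C3c, and 438 and 485 with C1C3b. All construct libraries lay below both mCherry libraries and both C1C3b libraries below all others. Ccne1 fell by 1.19 ± 0.18 (SE) with C1+14 (adjusted p = 2.96e-04), and the log2 fold changes were -1.26 with FL, -1.53 with C1C3a, -1.96 with C3+14, -2.29 with C1C3c and -2.97 with C1C3b (adjusted p = 2.02e-08). Each of these calls held in all 17 other settings, with the C1C3b value between -3.22 and -2.89. Its promoter window is the one printed above without any motif match.

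Ccne2, cyclin E2 (ENSMUSG00000028212, chromosome 4, 11191351 to 11204779, plus strand), did not share that order. It held 413 and 409 normalised reads in mCherry, 281 and 261 in C3+14, 225 and 301 in C1C3b, 184 and 263 in C1C3a, 165 and 155 in FL, 142 and 172 in C1C3c, and 211 and 98.6 in C1+14. C1C3b, with the lowest Ccne1 of the 7 groups, had the third highest mean of Ccne2. Ccne2 fell with FL (-1.36 ± 0.30, adjusted p = 0.00171), C1C3c (-1.39 ± 0.30, adjusted p = 0.00244) and C1+14 (-1.50 ± 0.30, adjusted p = 0.00253). The values with C3+14, C1C3b and C1C3a were -0.60, -0.66 and -0.90 and were not called, while 5 other settings called C1C3a, from -1.35 under median centring to -1.01 under quantile normalization. The C1+14 call was lost without C1+14 replicate 2, at -0.96, and when only the 2 groups were fitted (adjusted p = 0.111).

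Ccna2, cyclin A2 (ENSMUSG00000027715, chromosome 3, 36564865 to 36572150, minus strand), was the only one of the 10 genes called higher in a construct than in mCherry. Its libraries held 9106 and 9881 normalised reads in C3+14, 7507 and 7724 in C1C3a, 7505 and 6629 in C1C3b, 5643 and 5476 in FL, 5078 and 4980 in C1C3c, 4731 and 4719 in mCherry, and 4094 and 3993 in C1+14. The C3+14, C1C3a, C1C3b and FL libraries all lay above both mCherry libraries, and both C1+14 libraries lay below. With C3+14 Ccna2 rose by 1.01 ± 0.10 (SE, adjusted p = 1.46e-06), just past the fold needed for a call. The value was 0.94 with TMM scaling and with edgeR, 0.63 with median centring, 0.55 with quantile normalization and 0.95 without C3+14 replicate 2, and none of these reached that fold. With C1C3a and C1C3b it was 0.69 and 0.58, with adjusted p of 4.43e-05 and 2.19e-04, and was not called.

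Ccnb1 and Cdk1, the partners of mitotic entry, had no called difference from mCherry under any construct with the deposited scaling, and median centring called Cdk1 with C1C3b (-1.10). Ccnb1 (ENSMUSG00000041431, chromosome 13, 100778650 to 100786570, minus strand) ranged over the 14 libraries from 5851 to 9204 normalised reads, highest in mCherry (9204 and 9055) and lowest in C1C3b (5941 and 5871) and C1+14 (5851 and 6279). Between them lay C3+14 (8496 and 8702), C1C3a (7651 and 8160), FL (7281 and 7079) and C1C3c (6539 and 6082). Its log2 fold changes ran from -0.63 with C1C3b to -0.09 with C3+14. With FL the value was -0.35 (adjusted p = 0.00611 by limma), short of the fold for a call. Quantile normalization moved Ccnb1 to -0.999 with FL and -0.85 with C1C3a, and the other way to -0.40 with C1+14 and -0.32 with C1C3c. Cdk1 (ENSMUSG00000019942, chromosome 10, 69335146 to 69352938, minus strand) held 6650 and 6984 in C3+14, 6091 and 6423 in C1C3a, 5859 and 5474 in mCherry, 5553 and 5453 in FL, 3512 and 4048 in C1+14, 3975 and 3051 in C1C3c, and 3299 and 3008 in C1C3b. By their libraries the groups formed an upper set of C3+14, C1C3a, mCherry and FL and a lower set of C1+14, C1C3c and C1C3b, with no overlap between the libraries of the sets. The differences from mCherry in that lower set were -0.59 with C1+14, -0.70 with C1C3c and -0.85 with C1C3b, with adjusted p of 0.00410, 7.13e-04 and 8.87e-05, short of the fold for a call. Between scalings the sign for Cdk1 with C3+14 turned, from 0.27 to -0.19 under quantile normalization and -0.10 under median centring.

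Cdk2 (ENSMUSG00000025358, chromosome 10, 128697939 to 128705031, minus strand), the kinase partner of the E-type cyclins, ran the other way round. It held 2901 and 2960 normalised reads in C1C3c, 2268 and 2433 in C1+14, 1904 and 1969 in mCherry, 1925 and 1361 in C1C3b, 1120 and 1073 in FL, 935 and 962 in C3+14, and 780 and 813 in C1C3a. The 3 groups with a summed 2-cell level of 725187 or more, FL, C3+14 and C1C3a, had the 6 lowest libraries. Cdk2 fell with C3+14 (-1.03 ± 0.14, SE, adjusted p = 3.39e-05) and C1C3a (-1.28 ± 0.14, adjusted p = 4.56e-06), and both calls held in all 17 other settings. With FL the value was -0.82 ± 0.14 (adjusted p = 2.42e-04), short of the fold for a call but called under median centring (-1.09), and with C1C3c it was 0.60.

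Cdkn1b (ENSMUSG00000003031, chromosome 6, 134920401 to 134925513, plus strand), which encodes p27, was lowest in FL. FL had 181 and 437 normalised reads, against 583 and 639 in mCherry, 638 and 539 in C3+14, 613 and 742 in C1C3a, 808 and 635 in C1C3b, 877 and 744 in C1C3c, and 914 and 958 in C1+14. Both FL libraries lay below all others, and they differed from each other more than the replicates of any other group. Cdkn1b fell by 1.11 ± 0.30 (SE) with FL (adjusted p = 0.00537), and the value without FL replicate 1 was -0.48 and was not called. DESeq2 gave -0.98, and the fit of the 2 groups alone gave an adjusted p of 0.131. The other 5 values, -0.06 to 0.62, were not called.

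**Figure D3:**
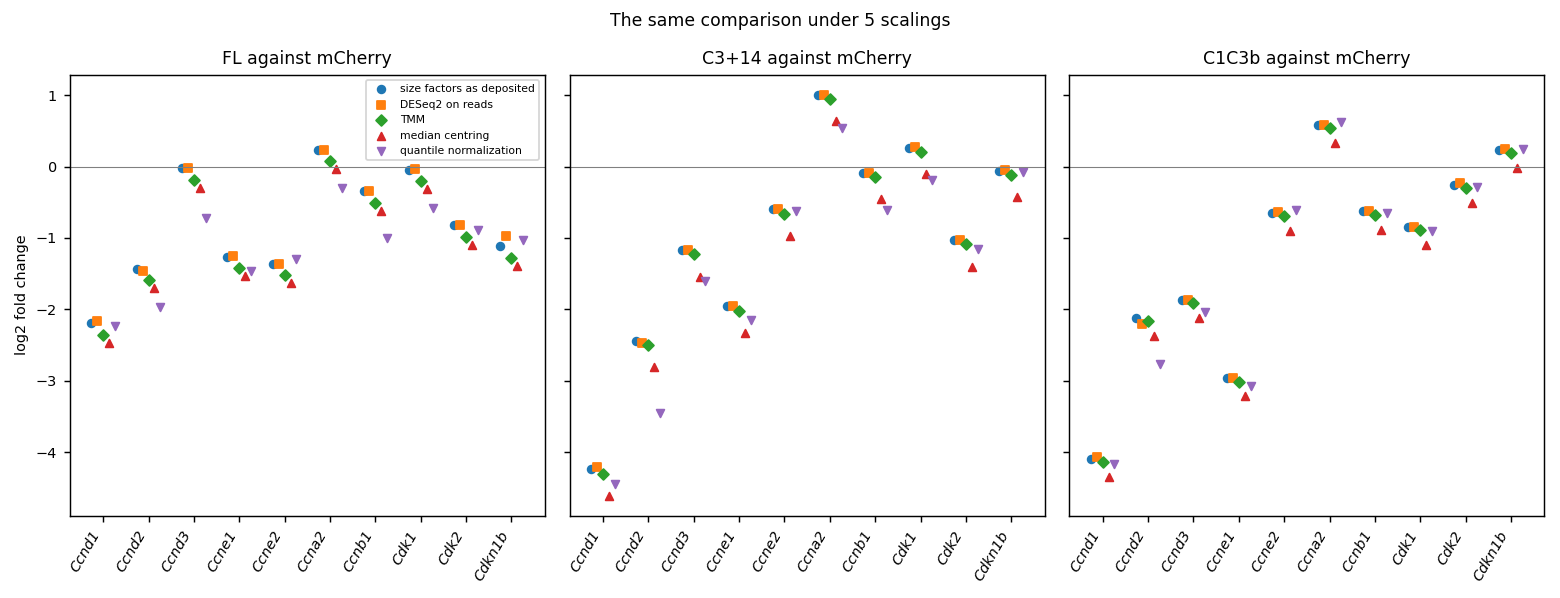
Log2 fold change of each gene for FL, C3+14 and C1C3b against mCherry under 5 scalings of the same libraries (marker shapes). Ccnd1 and Ccne1 stay below -1 under each, Ccna2 with C3+14 reaches 1 only with the deposited size factors and DESeq2, and with FL the signs of Ccna2 differ between scalings.

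Constructs of the high library kind could be set against each other without mCherry. C1+14 served as the reference, with the fewest 2-cell reads of the constructs in the chimera table. FL differed from it at 2 of the 10 genes, both lower, where 39.9% of genes were called and 18.4% called lower: the log2 fold change was -1.10 ± 0.14 for Cdk2 (SE, adjusted p = 2.55e-05) and -1.73 ± 0.30 for Cdkn1b (adjusted p = 2.68e-04). The Cdkn1b call held without either FL replicate, with values from -2.36 to -1.10 over all settings. Without C1+14 replicate 1, Ccnd2 was called higher in FL, at 1.89. C1C3a differed at 1 gene, Cdk2, which fell by 1.56 ± 0.14 (adjusted p = 9.37e-07), against 40.8% of genes called and 17.3% called lower. Without C1+14 replicate 1, Ccne2 was called as well, which made 2. C1C3b differed at 2 genes, against 28.9% called and 11.0% called lower: Ccnd3 at -1.37 ± 0.23 (adjusted p = 3.54e-04) and Ccne1 at -1.78 ± 0.18 (adjusted p = 5.80e-06). Ccne2 was called higher in C1C3b without C1+14 replicate 1 (1.39) and without C1C3b replicate 1 (1.06). C1C3c differed at 1 gene, against 7.83% called and 2.46% called lower: Ccne1 fell by 1.09 ± 0.18 (adjusted p = 0.00173). That call was lost without C1C3c replicate 2, at -0.82, while without C1C3c replicate 1 Ccnd1, Ccnd3 and Ccne1 were all called. With FL and C1C3a the share of the 10 genes called was below that of all genes tested, and with C1C3b it was near it. These counts rest on the minimum fold, and without it more of the 10 were called, as given in the closing section. Quantile normalization turned the split of all calls: 39.4% were higher in place of 53.8% with FL, 39.1% in place of 57.5% with C1C3a, and 47.3% in place of 61.9% with C1C3b. Ccnd1 did not pass in any of the 4, with FL above C1+14 by 0.97 (adjusted p = 0.152).

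Pairs among FL, C1C3a, C1C3b and C1C3c, which are of 1 library kind, were compared as well. In each pair the share of the 10 genes called lay near or below that of all genes tested. FL and C1C3a differed at 1 of the 10 genes (15.6% of all genes were called), FL and C1C3b at 4 (43.0%), FL and C1C3c at 5 (44.0%), C1C3a and C1C3b at 3 (35.6%), and C1C3a and C1C3c at 2 (39.7%). Between C1C3b and C1C3c limma called 0 (11.2% of all genes were called), as did edgeR and DESeq2, while 5 of the 10 had an unadjusted p below 0.05. Cdk2 was called there under quantile normalization with all libraries kept (-1.08) and without C1C3b replicate 1 (-1.11). Ccnd1 was called without C1C3c replicate 1 (1.96) and Ccnd3 without C1C3c replicate 2 (-1.07). Ccnd3 was higher in FL than in C1C3b by 1.85 ± 0.23 (adjusted p = 1.57e-05), and Ccne1 by 1.70 ± 0.18 (adjusted p = 3.44e-06). Between C1C3a and C1C3b the differences were 1.27 ± 0.23 for Ccnd3 (adjusted p = 4.38e-04, lost under quantile normalization at 0.86) and 1.44 ± 0.18 for Ccne1 (adjusted p = 2.01e-05), and that of Cdk2 was -1.02 ± 0.14 (adjusted p = 5.96e-05), which was not called without C1C3a replicate 1 (-0.99) or C1C3b replicate 1 (-0.77). Cdk2 set C1C3c apart from FL and C1C3a: the log2 difference was -1.42 ± 0.14 for FL (adjusted p = 2.50e-06) and -1.88 ± 0.14 for C1C3a (adjusted p = 1.83e-07). Ccnd1, Ccnd3 and Ccne1 were also higher in FL than in C1C3c, by 2.64 ± 0.56, 1.23 ± 0.23 and 1.02 ± 0.18 (adjusted p = 0.00116, 4.40e-04 and 2.33e-04). Without C1C3c replicate 2 Ccnd3 was at 0.77 and Ccne1 at 0.75, and without FL replicate 1 Ccne1 was at 0.83, none of them called. Quantile normalization did not call Ccnd3 (0.47) or Ccne1 (0.88), nor did edgeR (0.95 and 0.80). Ccne1 was also not called under median centring (0.90) or TMM scaling (0.81). The limma fit of the 2 groups alone did not call Ccnd1 (adjusted p = 0.0520). Ccnd1 was higher in C1C3a than in C1C3c by 1.38 ± 0.56 (adjusted p = 0.0489), a call that 12 of 17 other settings lost, among them leaving out C1C3c replicate 2 (0.16) or either C1C3a replicate. Ccnd1 was higher in FL than in C1C3b by 1.90 ± 0.56 (adjusted p = 0.00968), a call lost without C1C3b replicate 1 (1.56, adjusted p = 0.0806) or FL replicate 1 (1.57, adjusted p = 0.0809). Cdkn1b was lower in FL than in C1C3a, C1C3b and C1C3c (-1.26, -1.34 and -1.52), and without FL replicate 1 the values were -0.63, -0.71 and -0.89 and were not called.

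C3+14, a single repeat with the tail, was compared with FL. Of the 10 genes 3 were called, against 26.3% of all genes, 9.54% called lower and 16.8% higher. Ccnd1 fell by 2.04 ± 0.56 (SE, adjusted p = 0.0104) and Ccnd3 fell by 1.15 ± 0.23 (adjusted p = 0.00148), while Cdkn1b rose by 1.06 ± 0.30 (adjusted p = 0.0122). The Ccnd1 value was -1.73 without C3+14 replicate 1 and -1.72 without FL replicate 1, and neither passed (adjusted p = 0.0850 and 0.0841), so that 1 of the 10 genes, Ccnd3, was called when either of these libraries was left out. Cdkn1b was not called without FL replicate 1, at 0.42, without C3+14 replicate 1, at 0.94, or under quantile normalization, median centring, DESeq2 and the fit of the 2 groups alone, and Ccnd3 was not called under quantile normalization, at -0.89. Here the library kind differs between the groups, and the 2 cannot be told apart.

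**Figure D4:**
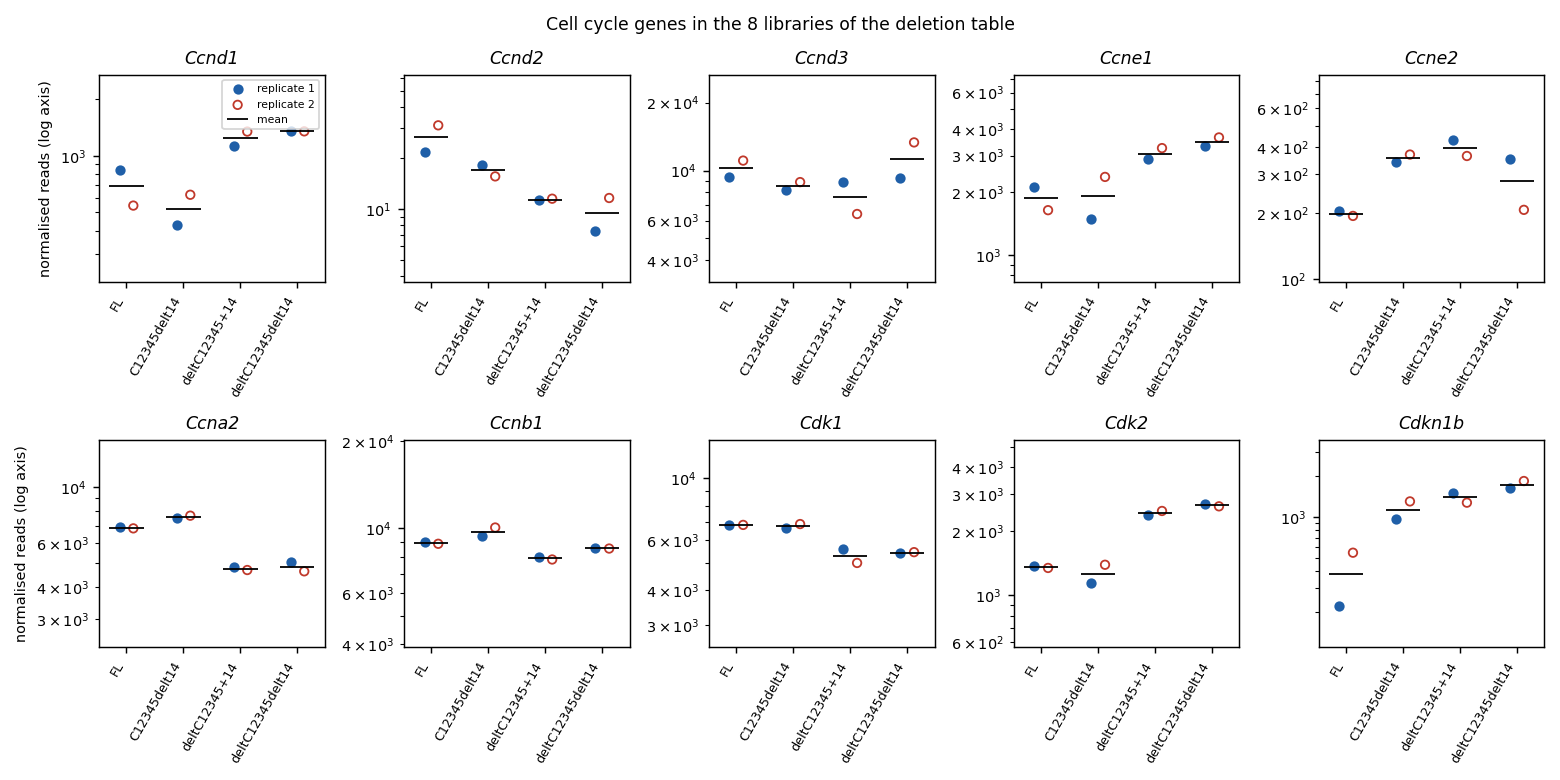
Normalised reads (log axis) of the 10 genes in each library of the deletion table, by group on the x axis. Filled and open circles are replicates 1 and 2 and the bar is their mean. Cdk2 and Ccnd1 are higher in all 4 libraries without the repeats than in the 4 libraries with them, and Ccna2 is lower with this scaling but not under quantile normalization.

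The deletion table compares FL with forms that lack the tail, the repeats or both. The 2-cell genes summed to 622052 or more in FL and C12345delt14 and to 0 to 3.28 without the repeats. Removing the tail alone gave 0 calls of 10 by limma, with 0.958% of 19833 genes called, while 4935 had an unadjusted p below 0.05. The largest value was that of Cdkn1b, at 223 and 546 normalised reads in FL and 957 and 1295 in C12345delt14: the libraries did not overlap, and the difference was 1.67 ± 0.37 (SE, adjusted p = 0.0687). It was the 1 gene called with DESeq2, which called 6.52% of all genes, with a pseudocount of 8, when only the 2 groups were fitted, without genes that share sequence and without FL replicate 2, and edgeR called 0 of the 10 with 2.35% of all genes called. Ccne2 followed at 203 and 194 against 342 and 369 (0.84 ± 0.27, adjusted p = 0.122).

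Without the repeats, Cdkn1b was the gene called in both forms. Cdkn1b held 1502 and 1268 normalised reads in deltC12345+14 and 1616 and 1826 in deltC12345delt14, all above both FL libraries. It rose by 1.98 ± 0.37 (SE, adjusted p = 0.00351) in the first and by 2.30 ± 0.37 (adjusted p = 0.00178) in the latter, and both calls held in all 17 other settings, at 1.33 or more. In deltC12345+14 this was 1 of 10 genes, against 38.4% of all genes called and 18.4% called higher; without FL replicate 1 Ccnd1 was called too, and without deltC12345+14 replicate 2 Ccne2 was, which made 2. In deltC12345delt14 3 were called, against 39.1%, with 18.8% higher and 20.3% lower: Cdkn1b, Ccnd1 and Ccnd2. Without FL replicate 1 Ccne1 joined them, which made 4, without FL replicate 2 or deltC12345delt14 replicate 1 Cdkn1b alone was called, and without deltC12345delt14 replicate 2 there were 2. Quantile normalization moved the median of all genes by 0.31 and 0.32 here, and calls of higher genes from 47.9% to 63.6% and from 48.1% to 63.3% of all calls.

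Ccnd1 held 839 and 543 normalised reads in FL, 426 and 621 in C12345delt14, 1128 and 1347 in deltC12345+14, and 1356 and 1351 in deltC12345delt14. All libraries without the repeats lay above all libraries with them. The difference from FL was 0.87 ± 0.26 (SE, adjusted p = 0.0224) without the repeats, and with the tail also gone Ccnd1 rose by 1.00 ± 0.26 (adjusted p = 0.0123), a value at the fold for a call that was lost without FL replicate 2 (0.69) and without deltC12345delt14 replicate 1. Ccnd2 fell by 1.40 ± 0.49 in deltC12345delt14 (adjusted p = 0.0420), from 21.7 and 31.3 to 7.39 and 11.6, and 12 of 16 other settings did not call it, among them leaving out FL replicate 2 or either deltC12345delt14 replicate.

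Cdk2 and Ccne1 had higher means in both forms without the repeats than in FL, without reaching the fold for a call. TMM scaling and quantile normalization called both genes in deltC12345delt14, and quantile normalization also in deltC12345+14. Cdk2 held 1377 and 1342 in FL, 1135 and 1389 in C12345delt14, 2395 and 2491 in deltC12345+14, and 2697 and 2620 in deltC12345delt14. Its differences from FL were -0.11, 0.85 and 0.97, with adjusted p of 0.645, 0.00194 and 0.00106. Ccne1 held 2118 and 1642, 1491 and 2370, 2875 and 3255, and 3318 and 3661 in the same groups, with differences of 0.01, 0.71 and 0.90 (adjusted p = 0.983, 0.0319 and 0.0125). For Ccna2 the libraries held 6940 and 6849, 7552 and 7691, 4804 and 4681, and 5027 and 4626, with differences of 0.14, -0.54 and -0.52, none called. The sign of Ccna2 without the repeats turned under quantile normalization, to 0.17 and 0.16, as did that of Cdk1, from -0.37 and -0.33 to 0.36 and 0.35, and that of Ccnb1, from -0.17 and -0.06 to 0.67 and 0.72. Cdk1 held 4988 to 5613 without the repeats against 6640 to 6869 with them, and Ccnb1 7821 to 8575 against 8855 to 10070. For Ccnd3 the libraries of FL (9407 and 11068) and deltC12345delt14 (9263 and 13325) overlapped, beside 8210 and 8885 in C12345delt14 and 8858 and 6415 in deltC12345+14. Ccne2 held 428 and 363 in deltC12345+14 and 354 and 206 in deltC12345delt14.

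Between the forms without the repeats, with and without the tail, limma called 0 of the 10 genes and 0 of 19833 genes (0.0%), while 543 had an unadjusted p below 0.05, and edgeR and DESeq2 called 0 of the 10 genes as well. Each of these groups holds 1 library of each kind. Within them the 2 libraries differed by -0.06 and -0.04 for Cdk2, by -0.26 and -0.01 for Ccnd1 and by -0.18 and 0.14 for Ccne1 on the log2 scale, high kind minus low kind. A test of whether the tail acts differently with and without the repeats gave no call among the 10 genes, nor among all genes (0.0%, while 2748 had an unadjusted p below 0.05). Its largest values were -1.38 ± 0.39 for Ccne2 (adjusted p = 0.312) and -1.36 ± 0.53 for Cdkn1b (adjusted p = 0.342).

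FL stands in both tables, so that each group can be given as a ratio of its mean to that of FL, although the tables were scaled separately and mCherry was not tested against the deletion forms. Ccnd1 stood at 4.48 times FL in mCherry, 1.79 in deltC12345+14 and 1.96 in deltC12345delt14. For Ccne1 these ratios were 2.38, 1.63 and 1.86, and for Cdk2 1.77, 1.80 and 1.96. For Cdkn1b they were 1.98, 3.60 and 4.47, and for Ccnd2 2.77, 0.428 and 0.358. C1+14, the other form with few 2-cell reads, stood at 0.496 for Ccnd1, 1.04 for Ccne1, 2.14 for Cdk2 and 3.03 for Cdkn1b.

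The genes around the cyclins were read from 6 lists, 65 genes in all, written from general knowledge. Against mCherry, 13 of 65 were called with FL (1 higher), 11 with C3+14 (4 higher), 8 with C1C3a (3 higher), 17 with C1C3b (5 higher), 9 with C1C3c (2 higher) and 3 with C1+14 (2 higher), in each case a smaller share than that of all genes given above. Without C1C3c replicate 1 the C1C3c count was 15 and without replicate 2 it was 4, and without C1+14 replicate 1 that of C1+14 was 5. Median centring raised the counts to 17 with C3+14, 14 with C1C3a, 14 with C1C3c and 7 with C1+14.

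Among kinases and E2F factors of G1, E2f2, an activator E2F, was called lower with every construct other than C1+14: its mean was 335 ± 14.1 (SD, n = 2) normalised reads with mCherry, 28.1 ± 2.29 with FL, 17.3 ± 1.58 with C3+14, 53.0 ± 9.17 with C1C3a, 15.4 ± 0.542 with C1C3b and 63.7 ± 35.6 with C1C3c. The log2 fold changes of E2f2 were -3.53 with FL, -4.20 with C3+14, -2.65 with C1C3a, -4.36 with C1C3b and -2.49 with C1C3c (adjusted p at most 1.41e-04). Cdk6, a kinase partner of the D-type cyclins, was also called lower with those 5, at -1.51 with C3+14 and C1C3b and -1.60 with C1C3a, while Cdk4 and E2f1 were called in none. E2f7, a repressor E2F, rose by 1.56 and E2f5 by 1.30 with C1C3b, while with FL E2f7 fell by 1.20 and Rbl2, a pocket protein, fell by 1.64. Tfdp1, the dimer partner of E2F, was called lower in 4 of the 6 comparisons with mCherry, at -1.06 with C1C3c and -1.42 at the lowest. In the deletion table E2f2 was higher than in FL by 3.27 in deltC12345+14 and by 3.63 in deltC12345delt14 (adjusted p = 7.81e-04 and 4.54e-04).

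The CDK inhibitors moved in both directions. Cdkn2c, which encodes p18, an inhibitor of CDK4 and CDK6, rose with all constructs other than FL, by 1.87 with C1+14, 1.95 with C1C3a, 2.28 with C1C3c, 2.69 with C3+14 and 3.89 with C1C3b, from 42.1 normalised reads in mCherry to 635 ± 6.04 in C1C3b. Cdkn1a, which encodes p21, fell by 2.67 ± 0.22 with FL, from 1987 ± 3.65 to 321 ± 105, and was called in no other comparison with mCherry. With FL Cdkn2d fell by 1.57, Cdkn2b fell by 1.45 and Cdkn2a, which encodes p16 and ARF, rose by 1.27. Cdkn1c, p57, rose by 1.35 with C3+14, 1.50 with C1C3a and 1.27 with C1C3b, and Cdkn2b, p15, by 1.62 with C1C3b and 1.57 with C1+14. Removing the tail alone gave 1 call in all 65 genes, Cdkn1a, which rose by 2.25 ± 0.25 (adjusted p = 0.0294) over FL, and without FL replicate 1 or either C12345delt14 replicate there were 0, against 6 without FL replicate 2.

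Of the regulators of CDK activity, Wee1, the inhibitory kinase of CDK1, fell with FL (-1.94), C3+14 (-1.18) and C1C3b (-1.26), and Cdc25a, its opposing phosphatase, with FL (-1.74) and C3+14 (-1.28). Pkmyt1, a relative of Wee1, fell with C1C3b (-1.42) and C1C3c (-1.02). Fbxo5, which encodes EMI1, an inhibitor of the anaphase-promoting complex, had 2088 normalised reads on average with mCherry and rose with C3+14, to 7781 ± 231 (1.90 ± 0.13), and with C1C3a, to 4953 ± 136 (1.25 ± 0.13). Ube2c, an enzyme of the same complex's pathway, fell with C1C3b (-1.45) and C1C3c (-1.25), and Fzr1 with C1C3b (-1.14). In replication licensing, Cdc6 fell with FL (-1.38), C3+14 (-1.06), C1C3b (-1.54) and C1C3c (-1.24), and Gmnn, the inhibitor of Cdt1, with C1C3a (-1.03) and C1C3b (-1.80). Cdt1 was called lower in 3 of the 6 comparisons, with FL (-1.25), C1C3c (-1.45) and C1C3b. The helicase genes Mcm2, Mcm3, Mcm4, Mcm5, Mcm6 and Mcm7, and Pcna, were called in none of the 6 comparisons. In mitosis, Bub1 rose by 1.52 with C3+14, Ttk by 1.19 with C1C3c, while Mybl2 fell with C1C3b (-1.21) and Aurka with C1+14 (-1.12).

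**Figure D5:**
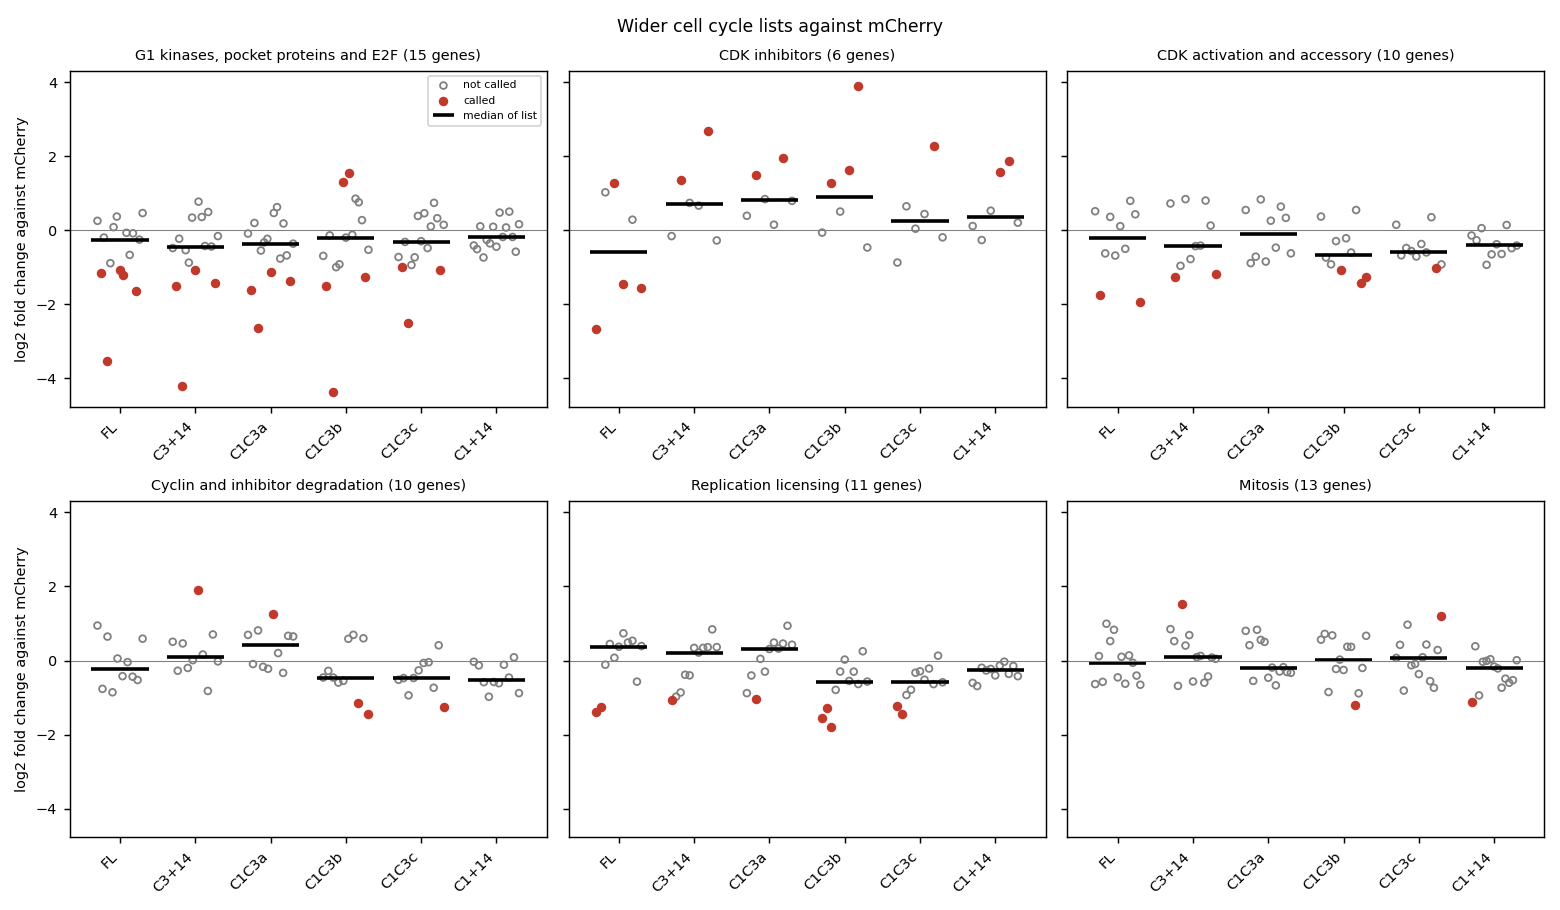
Log2 fold change against mCherry (y axis) of each gene in 6 cell cycle lists, by construct on the x axis. Red points are called, open points are not, and the bar is the list's median. Called points lie mostly below 0 among the G1 genes and, with constructs other than FL, above 0 among the CDK inhibitors.

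Across the 14 libraries of the chimera table, Ccnb1 and Cdk1 moved most alike of any pair of the 10 genes, with Pearson's r of 0.90 on the log2 scale, followed by Ccnd3 and Ccne1 at 0.90 and Ccnd1 and Ccne1 at 0.88. Cdk2 ran against Ccna2 (r = -0.75) and Cdk1 (r = -0.72). These are descriptions over 14 libraries that form 7 groups and share their size factors with all genes. Among 11739 other genes with a mean of at least 100, those most like Ccnd1 were Atp13a1 (r = 0.96) and Cryab (0.95), those most like Ccne1 were Palm3 and Knop1 (0.98 each), and those most like Ccnd3 were Twf2 and Ung (0.98 each). Mis12 and Txndc9 (0.98 each) were most like Ccna2, Nufip1 and Zw10 (0.97 each) most like Cdk1, Arid2 and Dse (0.97 each) most like Cdk2, and Mat2a (0.95) and Psmd5 (0.93) most like Ccnb1. For Cdkn1b they were Sertad3 (0.95) and Gucd1 (0.93), for Ccne2 Prpf4b (0.92) and Nsrp1 (0.90), and for Ccnd2 Sfswap (0.85) and Ppil4 (0.83).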

How the data were processed

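RNA-seq libraries of 20 samples in 10 groups were used, in 2 tables that the authors scaled separately. The values deposited by the authors are a signal: each library's read counts over that library's single size factor. Every value was a whole multiple of its library's step (100% of values above 0), so reads could be recovered. Trim Galore 0.5.0, FastQC, DESeq2 and the build mm10 are named in the submitters' processing notes; the aligner, counter and annotation are not given in the sources used here. The FL libraries in both tables held the same reads at every gene. Gene names, coordinates and exon lengths are from GENCODE M21 (GRCm38), and promoters from RefSeq.

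From the values, limma 3.58.1 (R 4.3.3) fitted log2(value + 1) over all groups of a table (lmFit, then trended eBayes). Genes reaching 10 in 2 or more libraries were kept (21584 and 19833). This pseudocount makes the folds of low genes too small. Calls needed a Benjamini-Hochberg adjusted p under 0.05 and a log2 fold change of at least 1; the tail-by-repeat interaction needed the adjusted p only. No exact permutation test was run, since 2 libraries per side cannot reach a p below 0.333. Alternatives were other pseudocounts (0.1 and 8), filters, scalings, and edgeR 4.0.16 and DESeq2 1.42.0 on recovered reads. Further ones were a replicate block, the fit of the compared groups alone, removal of genes that share sequence, and leaving out each library. The main fit without the minimum fold was counted among them. The test was run on simulated data with known library scaling and few changed genes. That run cannot check the calls where many genes differ or the scaling is in doubt. The comparison of FL with C1+14 and pairs among FL and the chimeras were added after seeing the library kinds. A library's kind was read from 1623 genes of which at least 50% of sampled 50-base windows recur in at least 20 genes. The members and lists were chosen with earlier results of these data known. The text names all 10 genes, from each wider list up to 2 called genes higher and 2 lower per comparison with mCherry, and the 2 genes most like each member. Genes named as never called, the other CDK inhibitor calls and those of the deletion table outside the 10 were picked after their values were seen.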

Additional observations from a re-analysis of the deposited data

How the results depend on the processing

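Over the called members, 663 of 709 fold changes under other settings and 187 of 220 without 1 library kept their call; the rest kept their direction and lost the call, and none reversed. Some settings also called members that had not been called, 2 genes with FL, 2 with C1C3a and 1 with C1C3b against mCherry, and against FL 1 in C12345delt14, 4 in deltC12345+14 and 2 in deltC12345delt14. Further gains lay in comparisons with C1+14 and between the chimeras. They came with 1 library left out, and that of Cdk2 between C1C3b and C1C3c also under quantile normalization. The other settings counted for kept calls include the main fit without the minimum fold, which cannot lose a call, so its calls were kept by construction. With no minimum fold, the members called were 7 with C1C3a, 7 with C1C3b and 8 with C1C3c against mCherry, 4 with C1C3a, 5 with C1C3b, 3 with C1C3c and 5 with FL against C1+14, and 6 with C3+14, 7 with deltC12345+14 and 7 with deltC12345delt14 against FL. Fitting only the groups compared gave 3 for C1C3c and 2 for C1+14 against mCherry, 0 for C1C3c against C1+14 and 1 for C12345delt14 against FL. Against FL, quantile normalization gave 1 for C3+14 and 3 for deltC12345+14; median centring, TMM scaling and edgeR gave 2 for deltC12345+14. A pseudocount of 8 and DESeq2 each gave 1 for C12345delt14 and 1 for deltC12345delt14, and leaving out genes that share sequence gave 1 for C12345delt14. Without 1 library, the count was 1 to 2 for C1C3a and 0 to 3 for C1C3c against C1+14, and against FL 1 to 3 for C3+14, 0 to 1 for C12345delt14, 1 to 2 for deltC12345+14 and 1 to 4 for deltC12345delt14. Except for the fold threshold, the causes were not tested.

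Replicate numbers did not pair the libraries: deviations of same-numbered libraries correlated at -0.101 to 0.0501 (chimera table) and -0.574 to 0.135 (deletion table), the lowest being that between deltC12345+14 and deltC12345delt14, whose kinds of library are crossed. With the numbers of that pair crossed, a setting chosen after seeing the data, 0 of the 10 genes and 0 of 19833 were called between them. With the replicate block the count of members called was 4 for FL, 6 for C3+14, 4 for C1C3a, 4 for C1C3b, 5 for C1C3c and 4 for C1+14 against mCherry, and the calls lost under it were that of Ccnd2 in deltC12345delt14 against FL (adjusted p = 0.0611), which left 2 of 10, and that of Ccnd1 between C1C3a and C1C3c (adjusted p = 0.0585).

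The main limits are 2 libraries per group, the 2 kinds of library, which in the mCherry comparisons cannot be told apart from the constructs other than C3+14, and the scaling: the deposited size factors and quantile normalization place the median of all genes up to 0.48 apart. Ccnd2, with 4.96 to 68.6 normalised reads, is the member whose depth limits it most.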
